A study of Mus musculus with 12 samples.

Results

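The genes described here are 42 genes of the extracellular matrix: collagen chains, laminin chains and other basement membrane proteins, matrix glycoproteins, and the enzymes and the chaperone that modify collagen in and outside the cell. They were listed by name, with earlier results of these data known. Each was measured by its brightest probe over the 12 arrays, among the probes annotated to it that were called detected (a detection p below 0.05) on 3 or more arrays. Of the 42, 37 had such a probe, among 10724 genes measured in this way in all. Col6a3, Col12a1, Lama3, Fbn1 and Loxl2 had no annotated probe and were not analysed here. A probe that carries the array symbol SPARC in capitals leads to Smoc1 by its annotation and was not counted for Sparc.

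Epithelial cells rest on a basement membrane, a sheet in which laminin trimers and a network of type IV collagen are joined by nidogen and perlecan, while fibrillar collagens and microfibrils fill the stroma around it. Collagen chains are hydroxylated on proline and lysine in the endoplasmic reticulum, fold as trimers with the help of a dedicated chaperone, and are cross-linked by lysyl oxidases after secretion. In the mammary gland the basal cells that face the stroma and the stromal fibroblasts are both known to make matrix, and contact with laminin is known to support the polarity of luminal cells.

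Blimp-1, the product of Prdm1, is a transcriptional repressor, and the series set Blimp-1 cKO against wild type cultures of primary mammary epithelial cells (MECs) of pregnant mice, grown in Matrigel, on Illumina Mouse WG-6 v2 BeadChips. The 4 groups, with 3 arrays each, were D4 Blimp-1 cKO, D4 wild type, D3 Blimp-1 cKO and D3 wild type, where D4 and D3 are days of culture. The cKO cells came from females that carried the BEH and CA alleles of Prdm1 and ROSA26:CreERT2 (Prdm1 BEH/CA;ROSA26:CreERT2), and the wild type cells from C57BL/6 females of 8 to 10 weeks, for which no Cre is described. Cultures of both genotypes were given 4-hydroxytamoxifen (100 nM for 24 h on day 0). CreERT2 is expressed from the ubiquitous ROSA26 locus, so its promoter does not limit deletion to 1 cell type of the culture. The deletion of Prdm1, the activity of Cre and the origin of the mice cannot be told apart here. The study's methods give the RNA as that of independent cultures, without saying which culture each array held or whether the cultures were of different animals, so p-values cover the spread among these arrays.

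Each array held 45281 probes, of which between 18087 and 18905 were detected, and arrays of 1 group correlated with each other at 0.985 to 0.992 on average. The measured Prdm1 probe (2597923) was detected on 3 of 3 D4 cKO arrays, 0 of 3 D4 wild type arrays, 1 of 3 D3 cKO arrays and 0 of 3 D3 wild type arrays. Its log2 signal averaged 6.82 ± 0.19 in D4 cKO and 5.57 ± 0.25 in D4 wild type, and 6.19 ± 0.30 in D3 cKO and 5.66 ± 0.33 in D3 wild type (SD, n = 3 arrays each). At D4 this gives at least 1.49-fold, a bound that was not tested. The fitted log2 difference at D4 was 1.25 (limma, adjusted p = 0.00478). The sources used here do not say whether the Prdm1 probe lies inside the deleted exons, so it does not check the deletion. On D4 wild type replicate 1 the matrix genes stood apart: their median was 0.62 above the D3 wild type mean on the log2 scale, against -0.09 and -0.14 on the other 2 arrays of the group. In the other groups, too, replicate 1 had the highest median. It was 0.79 in D4 cKO, against 0.65 and 0.43, and 0.54 in D3 cKO, against 0.29 and 0.26. In D3 wild type it was 0.07, against -0.05 and -0.04. Marker genes stood apart on D4 wild type replicate 1 too, with medians of 0.80, against 0.12 and -0.05, for fibroblast markers and 0.34, against -0.21 and -0.31, for basal markers. On D3 wild type replicate 1 the basal median was 0.31, against -0.17 and -0.16 on the other arrays of that group. The D4 calls without D4 wild type replicate 1 are given beside those with it. For the genes described in most detail the D4 value without that array is given too where it differs in its call.

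Blimp-1 cKO cultures had higher signals than wild type for most of the 37 genes at both days, and 4 of them passed the test at D4: Col8a1, Lama1, Plod2 and P4ha2. A gene passed the test with an adjusted p of at most 0.05 in limma, adjusted over the 19972 probes tested, and a fold of at least 1.5. At D4, 4 genes were higher (2.79% of all genes measured were) and 0 lower (1.45% of all genes). At D3, 0 were higher (1.94% of all genes) and 0 lower (0.55% of all genes), and an unadjusted p under 0.05 was seen for 20 genes at D4 (19.9% of all genes) and 13 at D3 (12.5% of all genes). Of the 37 genes, 33 had a positive difference of any size at D4 (47.1% of all genes) and 33 at D3 (45.4% of all genes). The arrays of the 2 genotypes did not overlap, with cKO above, for 10 genes at D4 (11.6% of all genes) and for 16 at D3 (9.51% of all genes). With cKO below they did not overlap for 0 genes at D4 (12.9% of all genes) and for 1, Fn1, at D3 (10.3% of all genes).

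The median difference between cKO and wild type, in log2 units, was 0.47 over the 37 genes and -0.02 over all genes at D4. At D3 it was 0.43 over the 37 genes and -0.02 over all genes. Lamb1 and Eln were detected on no D3 wild type array, and with both at their lower bound the D3 median was 0.38. These counts and medians describe the list and were not tested, since a dim gene could enter the list through the group in which it was high. The list itself was also chosen with earlier results of these data known. With D4 wild type replicate 1 left out, 14 genes passed at D4 (3.38% of all genes), adding Col1a1, Col1a2, Col4a1, Col4a2, Col7a1, Col17a1, Eln, Sparc, Tnc and Lox, and the median was 0.69. That fit kept D4 cKO replicate 1 of the same BeadChip, the D4 cKO array with the highest median of the matrix genes. The array left out had been singled out for its high median of these same genes, so its removal was bound to raise their median difference. The larger count and median are therefore no separate evidence of a genotype difference. Without D4 wild type replicate 3 only P4ha2 passed (1.78% of all genes). Only Col8a1 and P4ha2 did so without D4 wild type replicate 2 (2.1% of all genes), D4 cKO replicate 1 (2.01%) or D4 cKO replicate 2 (2.15%). The D4 arrays with 1 replicate number shared a BeadChip, and the median over the genes was 0.24, 0.63 and 0.65 within the 3 BeadChips, with 25 of 37 genes positive on all 3 (all genes, 2028 of 10724). When BeadChip was a block and only D4 arrays were fitted, 5 genes passed (1.65% of all genes), the 4 named and Col17a1.

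Beside these differences of the matrix genes, markers of basal cells and of fibroblasts, both of which make matrix, had positive medians in cKO against wild type at both days. Of 8 basal and myoepithelial markers measured, 7 had a positive difference at each day, with medians of 1.03 at D4 and 0.98 at D3. Actg2 rose at D4 (1.55, SE 0.33, adjusted p = 0.0198) and Cdh3 at D3 (0.91, SE 0.20, adjusted p = 0.0359). Krt14 had 0.13 at D4 and -0.24 at D3, so the basal marker that was not positive at D4 was a different gene. The summed signal of the basal list was 53747 to 64284 in D4 cKO and 41482 to 49557 in D4 wild type, and 53316 to 67656 in D3 cKO and 45549 to 50615 in D3 wild type, without overlap at either day. Such sums, here and for the fibroblast list below, weigh bright probes most, and signals of different probes are not on 1 scale. The basal markers Cnn1 and Oxtr were not detected. Of 10 fibroblast markers, which include Dcn and Lum from the fibril partners, 8 were positive at D4 and 10 at D3, with medians of 0.45 at D4 and 0.44 at D3. Among them Pdpn, which basal cells can also express, rose at D4 (0.63, SE 0.15, adjusted p = 0.042) and at D3 (0.70, SE 0.15, adjusted p = 0.0357).

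The summed fibroblast signal was 16951 to 20571 in D4 cKO and 9579.8 to 16008 in D4 wild type, and 14262 to 17217 in D3 cKO and 8791 to 11990.0 in D3 wild type. Pdgfra, a defining fibroblast marker, had -0.21 at D4 and 0.40 at D3, and Fap was detected on 1 of 3 D4 cKO, 0 of 3 D4 wild type, 2 of 3 D3 cKO and 0 of 3 D3 wild type arrays. The luminal markers had medians of 0.03 at D4 and -0.04 at D3, with 0 of 9 passing at either day. Endothelial markers had medians of 0.30 at D4 and 0.09 at D3, with 0 of 6 passing, and 3 of 4 pericyte markers were measured, with medians of 0.18 at D4 and 0.24 at D3. Of 6 myeloid markers only Csf1r and Lyz2 were measured, and Lyz2, which encodes lysozyme, fell at D4 (-1.17, SE 0.21, adjusted p = 0.00734). Of 5 adipocyte markers only Lep was measured, on 3 of 12 arrays. The part of cell composition in the differences of the matrix genes was not tested, and more cells of a type and more RNA per cell cannot be told apart in bulk RNA.

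**Figure D1:**
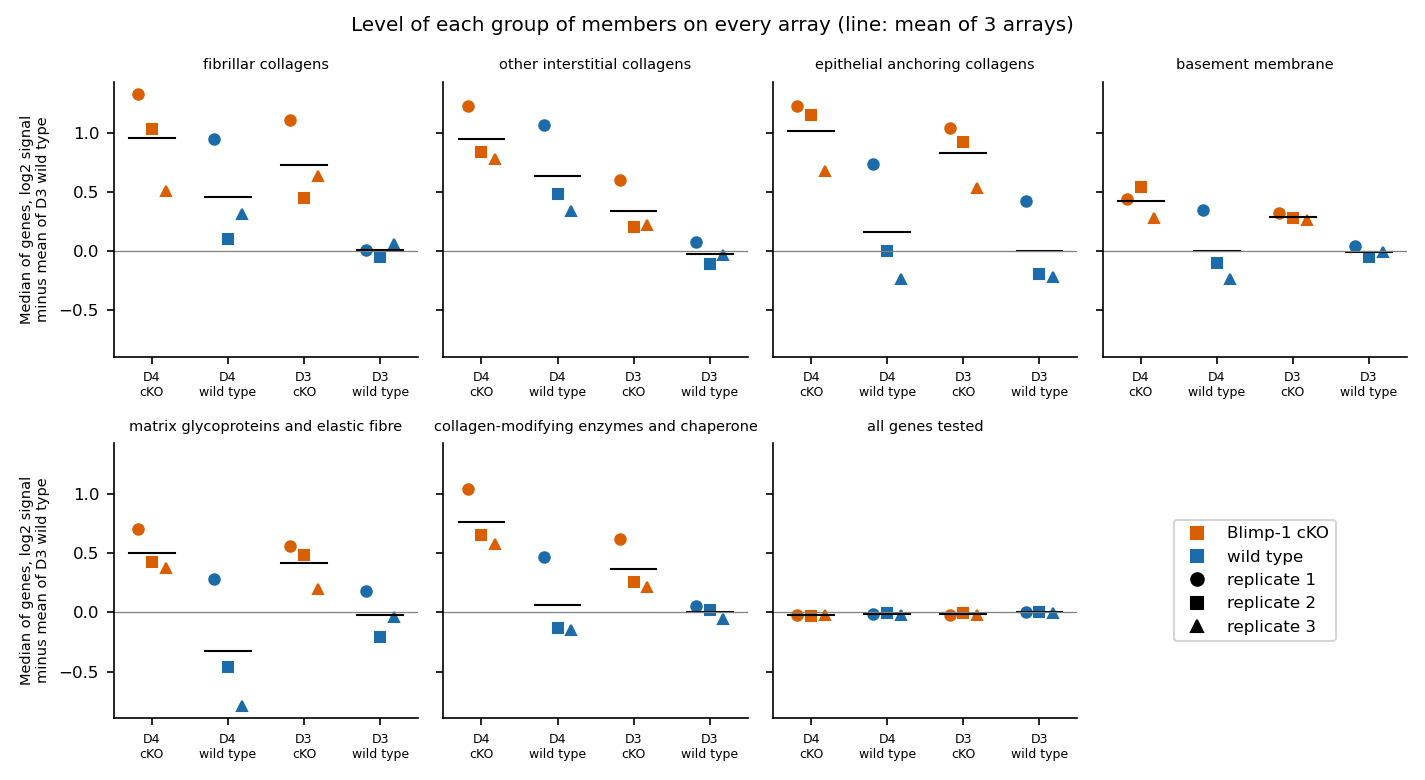
Each panel plots, for 1 group of matrix genes or for all genes, the median over the genes of the log2 signal minus the mean of that probe in D3 wild type, on every array (cKO orange, wild type blue, the shape gives the replicate and the line the mean of 3 arrays). In the panels of matrix genes the cKO means lie above the wild type means of the same day, D4 wild type replicate 1 lies above the other 2 arrays of its group, and all genes stay between -0.03 and 0.00.

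The levels of the groups of genes by role over the 4 groups of arrays are given as medians, and they were not tested against each other. The fibrillar collagens stood 0.95 ± 0.42 above the D3 wild type mean in D4 cKO and 0.45 ± 0.44 in D4 wild type (log2, mean ± SD of the array medians, n = 3), and 0.73 ± 0.34 in D3 cKO and 0.01 ± 0.05 in D3 wild type. The basement membrane genes stood at 0.42 ± 0.13 in D4 cKO and 0.00 ± 0.30 in D4 wild type, and at 0.29 ± 0.03 in D3 cKO and -0.01 ± 0.05 in D3 wild type. The enzymes and the chaperone stood at 0.76 ± 0.25 in D4 cKO and 0.06 ± 0.35 in D4 wild type, and at 0.36 ± 0.22 in D3 cKO and 0.01 ± 0.06 in D3 wild type. For all 3 groups the cKO arrays lay above the wild type arrays at D3 without overlap, while at D4 the enzymes did so, and for the other 2 groups D4 wild type replicate 1 was the only wild type array within the cKO range. At D4 the array medians of the enzymes were 1.05, 0.66 and 0.58 in cKO and 0.47, -0.13 and -0.15 in wild type, and those of the basement membrane genes were 0.44, 0.54 and 0.28 in cKO and 0.34, -0.10 and -0.24 in wild type. The other interstitial collagens had the highest wild type level at D4, 0.63 ± 0.39, against -0.03 ± 0.09 in D3 wild type, and stood at 0.94 ± 0.24 in D4 cKO and 0.34 ± 0.23 in D3 cKO.

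**Figure D2:**
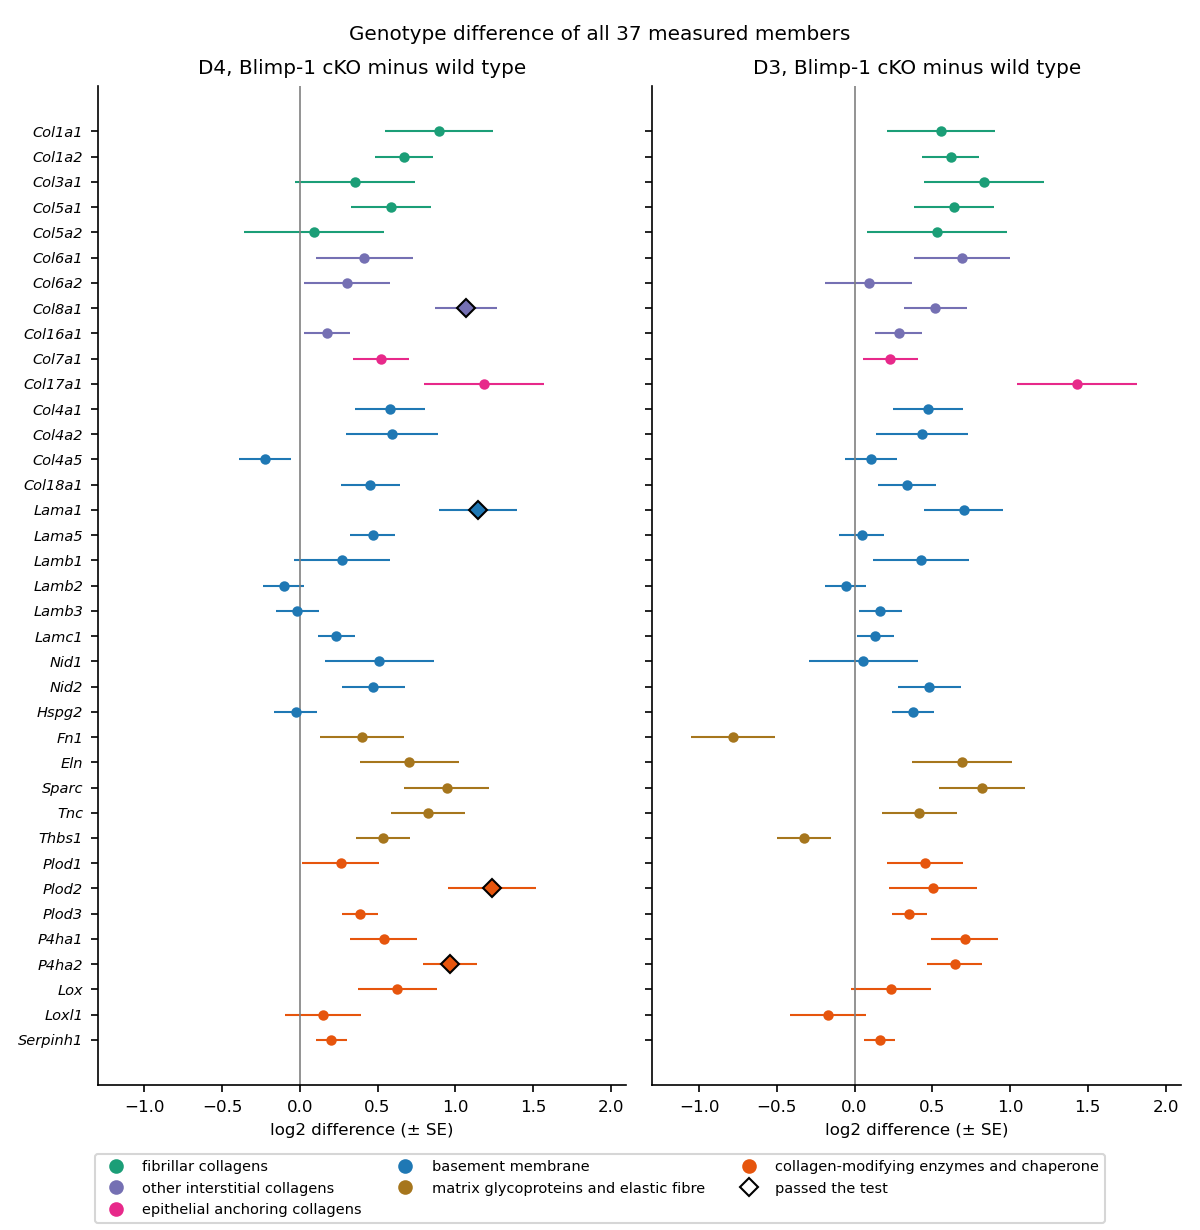
The points give the log2 difference between Blimp-1 cKO and wild type for each of the 37 measured genes at D4 (left) and D3 (right), with the standard error of the limma fit, coloured by role, and diamonds mark genes that passed the test. Most points lie right of 0 at both days, with Fn1 at -0.78 at D3 and Plod2, Lama1, Col8a1 and P4ha2 passing at D4.

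Of the 5 fibrillar collagen genes measured, 0 passed at either day, with medians of 0.59 at D4 and 0.62 at D3 (log2). Col1a1, which encodes a chain of type I collagen, had the largest D4 difference of the group. Its normalized signal (linear, in arbitrary units) was 3072, 2445 and 2928 on the D4 cKO arrays and 2858, 1286 and 928 on the D4 wild type arrays (log2 difference 0.90, SE 0.35, adjusted p = 0.181). At D3 it was 2607, 1361 and 1545 in cKO and 1201, 1146 and 1249.6 in wild type (0.56, SE 0.35, adjusted p = 0.578). The D3 groups did not overlap, and at D4 wild type replicate 1 lay within the cKO range. Without that array the D4 difference was 1.36 (adjusted p = 0.0134), and within the BeadChips it was 0.10, 0.93 and 1.66. Col1a1 did not pass in the limma fit of the D4 arrays alone with BeadChip as a block (adjusted p = 0.26). Col1a2, the partner chain of Col1a1, had 525, 449 and 331 in D4 cKO and 338, 220.1 and 260.3 in D4 wild type, a log2 difference of 0.67 at D4 (adjusted p = 0.0656) and 0.62 at D3 (adjusted p = 0.148).

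Col5a2, a chain of type V collagen, which helps to nucleate fibrils and limits their width, had the smallest D4 difference among the fibrillar chains, 0.09, SE 0.45, adjusted p = 0.944. Its probe (2470069) was dim, with signals of 185, 69.8 and 66.8 in D4 cKO and 142, 70.5 and 71.2 in D4 wild type, and it was detected on 5 of 12 arrays. The signals of Col5a1, its partner chain, were 4636, 4392 and 2935 in D4 cKO and 3888, 2429.7 and 1872 in D4 wild type (0.59, SE 0.26, adjusted p = 0.241). Its cKO and wild type arrays overlapped at D4 and did not at D3. Signals of different probes are not on 1 scale, so those of Col5a1 and Col5a2 do not order their RNA. Col5a2 changed sign at D4 without D4 cKO replicate 1 (-0.39), without D4 wild type replicate 2 and without D4 wild type replicate 3, so its direction was not settled. Col3a1, the chain of type III collagen, was detected on 10 of 12 arrays and had log2 differences of 0.36 at D4 and 0.83 at D3, where the genotypes did not overlap (adjusted p = 0.412).

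Among the other interstitial collagens 4 of 6 genes were measured, and Col8a1 rose at D4. Col8a1 encodes a short chain of type VIII collagen, which forms hexagonal networks and is known from the corneal endothelium and vessel walls. Its signal was 3520.4, 2569.7 and 2337 in D4 cKO and 1551, 1194 and 1239 in D4 wild type, which is 2.1-fold higher in cKO (log2 difference 1.07, SE 0.20, adjusted p = 0.011). The lowest cKO array lay above the highest wild type array, and the differences within the BeadChips were 1.18, 1.11 and 0.91. At D3 the signal was 2486, 1619 and 2494 in cKO and 1694, 1359.5 and 1479 in wild type (0.52, SE 0.20, adjusted p = 0.298), and the groups overlapped. A second Col8a1 probe (2503553) also passed at D4, with 0.96, SE 0.23, adjusted p = 0.0363. Among the 19 alternatives the D4 call of the brightest probe was lost in 2, of which leaving out D4 wild type replicate 3 was 1, with adjusted p values between 0.00156 and 0.177.

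**Figure D3:**
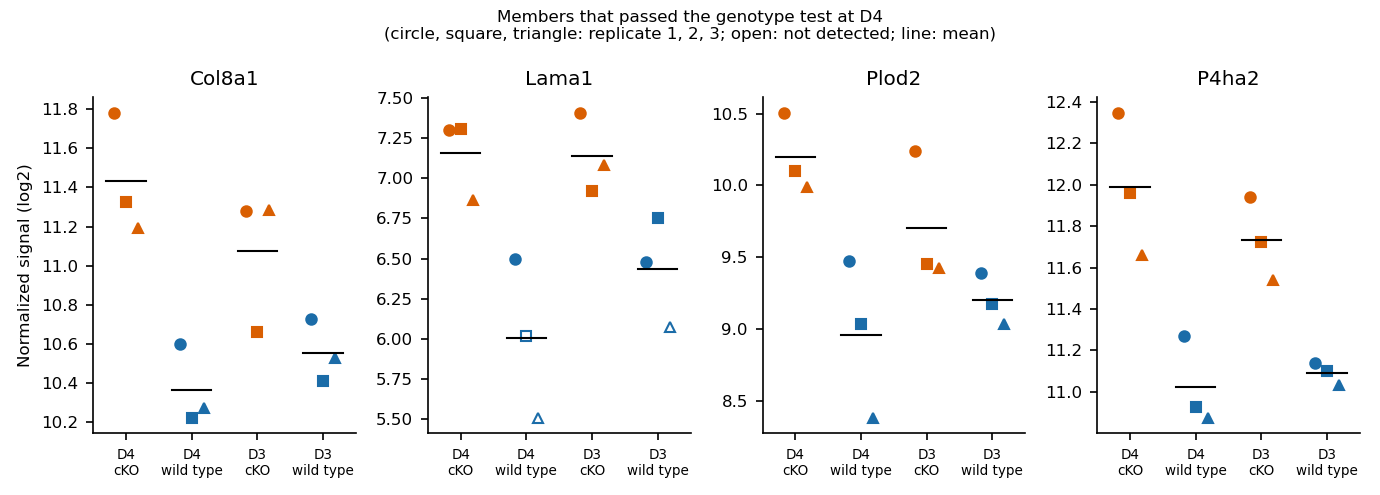
Normalized log2 signal of the 4 genes that passed the genotype test at D4, on each array of the 4 groups (D4 cKO, D4 wild type, D3 cKO, D3 wild type); open symbols are arrays on which the probe was not detected and lines are means of 3 arrays. At D4 the 3 cKO arrays lie above the 3 wild type arrays for each gene, and for Lama1 2 of 3 D4 wild type arrays are open.

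Promoter sequences are shown for Col8a1 and P4ha2, the genes among the 4 for which RefSeq start sites were at hand, so that the letters upstream of genes that rose at D4 can be read beside their values. Each run is 250 bases that end just before the annotated start (RefSeq, GRCm38.p6, written in the direction of transcription), in lower case, with capitals for matches on either strand to any of 6 short motifs. The motifs were ACGTG and GCGTG (cores of hypoxia response elements), CCAAT (the CCAAT box), GGGCGG (the GC box), TATAAA (the TATA box) and AGNGAAAG (a core of Blimp-1 sites, like that of interferon regulatory factors).
Col8a1, chr16:57754738-57754987, - strand: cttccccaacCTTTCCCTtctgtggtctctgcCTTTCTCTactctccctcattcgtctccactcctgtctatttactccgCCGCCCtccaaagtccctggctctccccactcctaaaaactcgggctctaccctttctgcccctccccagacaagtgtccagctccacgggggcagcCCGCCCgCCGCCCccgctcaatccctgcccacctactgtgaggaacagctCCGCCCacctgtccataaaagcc
P4ha2, chr11:54100674-54100923, + strand: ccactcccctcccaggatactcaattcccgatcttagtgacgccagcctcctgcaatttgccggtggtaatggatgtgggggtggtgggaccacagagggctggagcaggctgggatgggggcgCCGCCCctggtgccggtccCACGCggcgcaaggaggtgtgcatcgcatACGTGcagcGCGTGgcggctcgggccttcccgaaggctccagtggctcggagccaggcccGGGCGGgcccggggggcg
Col8a1 had 4 matches to GGGCGG and 2 to AGNGAAAG, all on the strand opposite to the one printed. P4ha2 had 2 matches to GGGCGG, 1 to ACGTG and 2 to GCGTG, and neither promoter held CCAAT or TATAAA. Of 32851 promoters searched in the same window, 32.7% held GGGCGG, 7.3% AGNGAAAG, 16.6% ACGTG, 28.2% GCGTG, 33.8% CCAAT and 12.4% TATAAA. A promoter was at hand for 26 of the 37 measured genes, of which 18 held GGGCGG, 4 AGNGAAAG (Col4a5, Col5a1, Col8a1 and Plod3), 6 ACGTG, 11 GCGTG, 11 CCAAT and 4 TATAAA. A gene was counted if any of its promoters held the motif, while the shares above are of promoters, so the counts and shares are in unlike units. For Col8a1 and P4ha2 the first promoter listed is shown. Col4a5, which holds AGNGAAAG, had a D4 difference of -0.22, Col5a1 had 0.59 and Plod3 had 0.39, and none of these 3 passed. A match is a run of letters and not a binding site.

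Col6a1 and Col6a2 encode chains of type VI collagen, the beaded microfilament of the pericellular matrix, and Col16a1 a collagen that associates with fibrils. None of the 3 passed between genotypes, with differences of 0.42, 0.30 and 0.18 at D4 and 0.69, 0.09 and 0.28 at D3. A second, also dim, Col6a2 probe (1216661) gave 0.61 at D4 and 0.74 at D3 (limma, adjusted p = 0.352 and 0.386). It did not overlap between genotypes at D3, where it was detected on 2 of 3 cKO and 0 of 3 wild type arrays. The size of the Col6a2 difference at D3 thus depended on the probe. Without D4 wild type replicate 1 the D4 difference was 0.76 for Col6a1 (adjusted p = 0.153) and 0.30 for Col16a1 (adjusted p = 0.317). The signals of Col6a1 and Col16a1 also differed between the days, as the day comparison gives.

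The epithelial anchoring collagens had the largest median of any role group at both days, 0.85 at D4 and 0.83 at D3, over only 2 genes. Col17a1 encodes the transmembrane collagen of hemidesmosomes, which bind basal cells to the basement membrane. Its signal was 3584, 2804 and 1724 in D4 cKO and 1888, 929 and 842 in D4 wild type (1.18, SE 0.39, adjusted p = 0.113). At D3 it was 2809, 2456 and 1735 in cKO and 1400.4, 694 and 628 in wild type (1.43, SE 0.39, adjusted p = 0.0995). The genotypes did not overlap at D3 and at D4 overlapped by 1 wild type array, while for the other 2 Col17a1 probes it was D4 without overlap and D3 with it. The 3 probes gave differences between 1.14 and 1.43 over both days, and 0 of 3 passed. Col17a1 passed without D4 wild type replicate 1 (1.55, adjusted p = 0.0429), as it did when BeadChip was a block and only D4 arrays were fitted (adjusted p = 0.049), and within the BeadChips the differences were 0.92, 1.59 and 1.03. Col7a1, the collagen of the anchoring fibrils below the basement membrane, had signals of 2451, 2824 and 2377 in D4 cKO and 2359, 1721 and 1367 in D4 wild type (0.52, SE 0.18, adjusted p = 0.127). The cKO arrays of Col7a1 lay just above the wild type arrays at D4, and without D4 wild type replicate 1 the difference was 0.73 (adjusted p = 0.0221). With BeadChip as a block and only D4 arrays fitted in limma, Col7a1 did not pass (adjusted p = 0.293). At D3, with 2412, 2338 and 1945 in cKO and 2055, 1764 and 1881 in wild type, the groups overlapped (0.23, SE 0.18, adjusted p = 0.676).

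Of the 13 basement membrane genes measured, Lama1 rose at D4 and the other 12 did not pass at either day. The median of the group was 0.45 at D4, with 9 of 13 positive, and 0.34 at D3, with 12 of 13 positive, or 0.17 at D3 with Lamb1 at its lower bound. Lama1, the alpha chain of the laminin of early embryonic basement membranes, was dim, with signals of 157, 158 and 117 in D4 cKO and 90.4, 64.8 and 45.5 in D4 wild type, 2.22-fold higher in cKO (log2 difference 1.15, SE 0.25, adjusted p = 0.0244). It was detected on 3 of 3 cKO and 1 of 3 wild type arrays at D4, and on 3 of 3 cKO and 2 of 3 wild type arrays at D3. At D3 its signals were 169.7, 121 and 135 in cKO and 89, 108 and 67.5 in wild type (0.70, SE 0.25, adjusted p = 0.252). The genotypes did not overlap at either day, and the D4 differences within the BeadChips were 0.80, 1.29 and 1.36. The D4 call was lost in 7 of 19 alternatives, and without background correction the difference was 0.43, under 1.5-fold.

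The other laminin chains had smaller differences at D4. Lama5, the alpha chain found in most adult epithelial basement membranes, had 0.47 at D4 without overlap of the genotypes (adjusted p = 0.096) and 0.04 at D3. Lamb3, a chain of the laminin that binds hemidesmosomes, had the D4 difference closest to 0 in the group, with signals of 7001, 6893 and 6784 in D4 cKO and 8273, 7004 and 5853 in D4 wild type (-0.02, SE 0.14, adjusted p = 0.968). At D3 its signals were 6997, 6605 and 5305 in cKO and 5681, 5781 and 5291 in wild type (0.17, SE 0.14, adjusted p = 0.71). The direction of Lamb3 at D4 was not settled, since it was 0.11 without D4 wild type replicate 1 and 0.06 from the values that the authors processed. Lamc1, the gamma chain of most laminins, had 0.24 at D4 and 0.13 at D3, Lamb2, a beta chain, had -0.10 at D4 and -0.06 at D3, and Lamb1, another beta chain, had 0.27 at D4. At D3 Lamb1 was detected on 2 of 3 cKO arrays and on 0 of 3 wild type arrays. This gives at least 1.04-fold, an untested bound set by the dimmest detected probe of those wild type arrays. The fitted D3 difference of Lamb1 was 0.43 (adjusted p = 0.643).

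Col4a1 and Col4a2, which form the common type IV collagen trimer, had close values at D4 (0.58 and 0.59) and at D3 (0.47 and 0.43), with adjusted p values of at least 0.178. These 2 genes are known to share a bidirectional promoter. The signals of Col4a1 were 5505, 4990.1 and 4092 in D4 cKO and 4905, 2539 and 2705 in D4 wild type, with wild type replicate 1 in the cKO range. Col4a5, a chain of a different type IV trimer, had -0.22 at D4 and 0.10 at D3. Col18a1, the collagen that carries endostatin, had 0.45 at D4 and 0.34 at D3, and the linker genes Nid1 and Nid2 had 0.51 and 0.47 at D4 and 0.06 and 0.48 at D3. The D4 differences of Nid1 within the BeadChips were uneven, -0.15, 0.21 and 1.47 (limma, adjusted p = 0.485). Nid2 was dim, detected at D4 on 3 of 3 cKO and 1 of 3 wild type arrays (limma, adjusted p = 0.229). Hspg2, which encodes perlecan, had -0.03 at D4 and 0.38 at D3, where the genotypes did not overlap (adjusted p = 0.258).

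Of the 5 matrix glycoprotein and elastic fibre genes measured, 0 passed at either day by their brightest probe, and their median was 0.70 at D4 and 0.42 at D3, or 0.13 at D3 with Eln at its lower bound. Without D4 wild type replicate 1 the D4 median was 1.08. Sparc, a collagen-binding matricellular protein, was the largest at D4, with 14372, 11734 and 11294 in D4 cKO and 10491, 5333 and 4778 in D4 wild type (0.94, SE 0.28, adjusted p = 0.0783). At D3 its signals were 12153, 8506 and 7780.0 in cKO and 6363, 4550.4 and 5061 in wild type (0.82, SE 0.28, adjusted p = 0.213). The genotypes did not overlap at either day, and the differences within the D4 BeadChips were 0.45, 1.14 and 1.24. The D4 difference of Sparc was 1.30 when D4 wild type replicate 1 was left out (adjusted p = 0.00697). It did not pass in the limma fit of the D4 arrays alone with BeadChip as a block (adjusted p = 0.106). Tnc, which encodes tenascin-C, had 18979, 15605 and 15023 in D4 cKO and 14118, 8435 and 6722 in D4 wild type, a log2 difference of 0.82 at D4 without overlap of the genotypes (adjusted p = 0.0786) and 0.42 at D3. Eln, the precursor of elastin, was detected on 3 of 3 D4 cKO, 1 of 3 D4 wild type, 2 of 3 D3 cKO and 0 of 3 D3 wild type arrays. Its difference was 0.70 at D4 (adjusted p = 0.254). At D3 it was at least 1.09-fold, a bound that was not tested, and the fitted D3 difference was 0.69 (adjusted p = 0.409).

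Fn1 and Thbs1 were the members of this group that differed in direction between the days. Fn1, which encodes fibronectin, had signals of 3226, 2902 and 3646 in D4 cKO and 3839, 2426 and 1598 in D4 wild type (0.40, SE 0.27, adjusted p = 0.481). Without D4 wild type replicate 1, which lay above all 3 cKO arrays, it was 0.72 (adjusted p = 0.109). At D3 it had 2322, 1731 and 2579 in cKO and 4253, 3098 and 3995 in wild type (-0.78, SE 0.27, adjusted p = 0.234), and all 3 cKO arrays lay below the wild type arrays. Thbs1, which encodes thrombospondin-1, an inhibitor of angiogenesis that also activates latent TGF-beta, had 2464, 2265 and 1982 in D4 cKO and 1863, 1628 and 1200.2 in D4 wild type (0.53, SE 0.17, adjusted p = 0.111). At D3 it had 2657, 1936 and 2174 in cKO and 2527, 2867 and 3038 in wild type (-0.33, SE 0.17, adjusted p = 0.494). The D4 genotypes of Thbs1 did not overlap, with cKO above, and the D3 genotypes overlapped. The test of the difference itself, D4 genotype difference minus D3 genotype difference, gave 1.18, SE 0.38, adjusted p = 0.55, for Fn1 and 0.86, SE 0.24, adjusted p = 0.452, for Thbs1. In that test 0 of the 37 genes passed (0% of all genes), and Fn1 and Thbs1 were the 2 with an unadjusted p under 0.05 (7.39% of all genes).

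Of the 8 collagen-modifying genes measured, Plod2 and P4ha2 rose at D4 and 0 passed at D3, and the medians were 0.46 at D4 and 0.40 at D3. Plod2, the lysyl hydroxylase that acts on the telopeptides of fibrillar collagens, had signals of 1456, 1100.2 and 1015 in D4 cKO and 709, 524 and 333 in D4 wild type, 2.36-fold higher in cKO (log2 difference 1.24, SE 0.28, adjusted p = 0.0292). At D3 they were 1209.9, 702 and 687 in cKO and 672, 577 and 526 in wild type (0.51, SE 0.28, adjusted p = 0.52). The genotypes of Plod2 did not overlap at either day, though at D3 cKO replicates 2 and 3 lay close to the highest wild type array. Its second probe (2770429) gave 1.41, SE 0.29, adjusted p = 0.0165, at D4. Within the BeadChips the Plod2 differences were 1.04, 1.07 and 1.61, and its call was lost in 6 of 19 alternatives.

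P4ha2, a catalytic subunit of collagen prolyl 4-hydroxylase, had signals of 5209, 3985 and 3242 in D4 cKO and 2473, 1945 and 1877 in D4 wild type, 1.95-fold higher in cKO (log2 difference 0.97, SE 0.17, adjusted p = 0.0086). At D3 they were 3923, 3376 and 2979.6 in cKO and 2254, 2200.0 and 2093 in wild type (0.64, SE 0.17, adjusted p = 0.101). The genotypes did not overlap at either day, and the wild type arrays varied little at D3. A second probe (2789562) also passed at D4, with 1.11, SE 0.18, adjusted p = 0.00508, and the differences within the BeadChips were 1.07, 1.03 and 0.79. The P4ha2 call was lost in 2 of 19 alternatives, both of which used the D4 arrays alone, and it was kept when any single D4 array was left out. P4ha1, the other catalytic subunit measured, had 1237, 1085 and 776 in D3 cKO and 692, 564 and 613 in D3 wild type, and log2 differences of 0.54 at D4 (adjusted p = 0.192) and 0.71 at D3 (adjusted p = 0.154), with no overlap at D3.

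The remaining enzymes did not pass. Plod3, a lysyl hydroxylase that also glycosylates collagen, had 9111, 9309 and 8398 in D4 cKO and 7594, 6799 and 6154 in D4 wild type, with log2 differences of 0.39 at D4 and 0.35 at D3, without overlap of the genotypes at either day (adjusted p = 0.0825 and 0.193). Plod1, which hydroxylates lysines in the collagen helix, had 0.26 at D4 and 0.45 at D3, and Lox, the lysyl oxidase that cross-links collagen and elastin, had 0.63 at D4 and 0.23 at D3. Loxl1, a lysyl oxidase needed for elastic fibres, had the smallest D4 difference of the group. Its signals were 2152, 1778 and 1909 in D4 cKO and 2680.0, 1449 and 1382 in D4 wild type (0.15, SE 0.24, adjusted p = 0.809). At D3 Loxl1 had 1964, 1226 and 1417 in cKO and 1500.2, 1813 and 1796 in wild type (-0.17, SE 0.24, adjusted p = 0.85). Its direction was not settled at D4, since it was -0.02 without D4 wild type replicate 3 and 0.46 without D4 wild type replicate 1. Serpinh1, the collagen chaperone, had 0.20 at D4 and 0.16 at D3 by its brightest probe.

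For 18 of the 37 genes more than 1 probe was detected, and between the genotypes another probe of Sparc, Serpinh1 and Tnc passed where the brightest did not. These probes were singled out after their values were seen. Sparc probe 1243212 had signals of 1279, 853 and 565 in D4 cKO and 170.2, 81.2 and 109 in D4 wild type (2.89, SE 0.33, adjusted p = 0.000486), and 968, 728 and 619 in D3 cKO and 112, 69.7 and 77.1 in D3 wild type (3.17, SE 0.33, adjusted p = 0.00022). The other 2 Sparc probes gave 0.94 and 0.91 at D4 and 0.82 and 0.91 at D3, so the 3 probes shared a direction. The size of the difference of Sparc probe 1243212 depended on the background correction, without which it was 1.81 at D4 and 1.83 at D3, and the probe was detected on 2 of 3 D3 wild type arrays. Serpinh1 probe 2822850 had 2592, 2699.9 and 2678 in D4 cKO and 1543, 997 and 1408 in D4 wild type (1.04, SE 0.16, adjusted p = 0.00334), and 2528, 2028 and 2647 in D3 cKO and 1119, 964 and 1094 in D3 wild type (1.17, SE 0.16, adjusted p = 0.00162). The brightest Serpinh1 probe lay between 19532 and 25628 on the 12 arrays, with log2 differences of 0.20 at D4 and 0.16 at D3, so the 2 probes gave different sizes in 1 direction. With BeadChip as a block and only the D4 arrays fitted, Serpinh1 probe 2822850 did not pass (adjusted p = 0.0674), while Sparc probe 1243212 did (adjusted p = 0.0102). Of 7 Tnc probes, probe 2567596 passed at D4, with 129, 202 and 204 in D4 cKO and 85.5, 54.2 and 38 in D4 wild type (1.64, SE 0.27, adjusted p = 0.005), and the other 6 gave between 0.82 and 1.25 at D4. Tnc probe 2567596 was dim and was detected on 1 of 3 D4 wild type arrays. Its difference was 0.66 without background correction, and it did not pass in the fit of the D4 arrays with the BeadChip block (adjusted p = 0.116). The part of probe sequence in these differences was not tested.

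**Figure D4:**
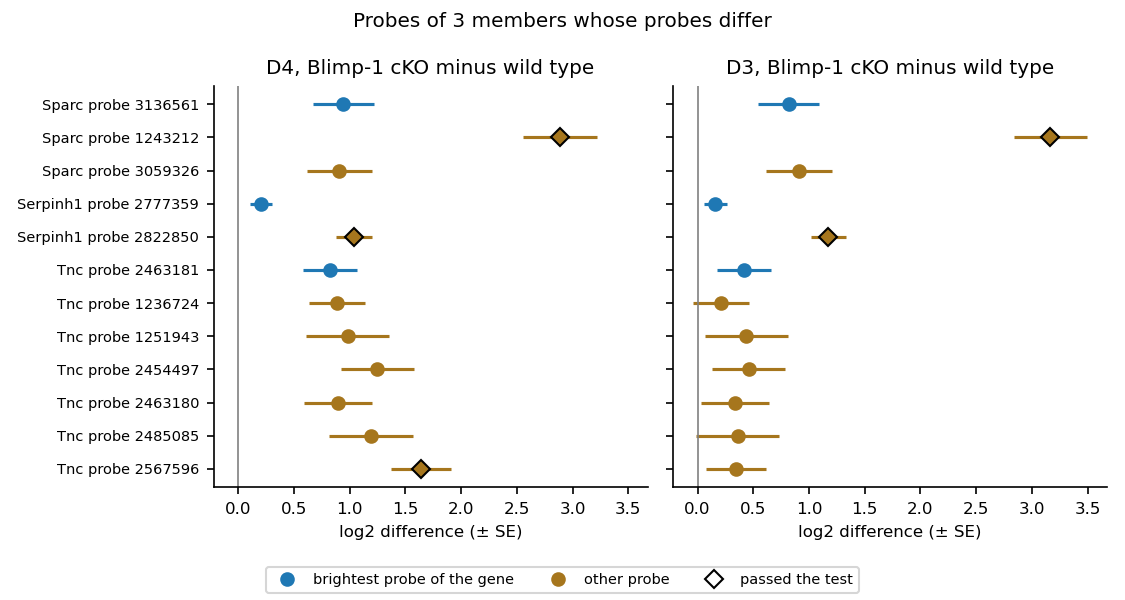
Log2 difference between Blimp-1 cKO and wild type with its standard error for each detected probe of Sparc, Serpinh1 and Tnc at D4 (left) and D3 (right); blue marks the brightest probe of the gene and diamonds mark probes that passed the test. Sparc probe 1243212 lies near 3 at both days while the other 2 lie under 1, and the brightest Serpinh1 probe lies near 0.2 at both days.

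Between D4 and D3, 1 matrix gene passed in cKO cultures and 5 in wild type cultures, and the contrast of these counts was not tested. In cKO cultures 1 gene was higher at D4 (2.53% of all genes) and 0 lower (1.61% of all genes). That gene was Col16a1, and when the cKO arrays were fitted alone with same-numbered D4 and D3 arrays paired, an alternative added after seeing the data, Col6a1 and Col6a2 passed in its place (1.77% of all genes). In wild type cultures 4 were higher at D4 (7.09% of all genes), Col6a1, Col16a1, Col4a5 and Lamb2, and 1 lower (4.89% of all genes), Thbs1. These counts are by the brightest probe. With any probe of a gene counted, Col6a2 and P4ha1 were also higher in wild type at D4 and Tnc also lower. Col6a2 probe 1216661 changed by 1.21 (limma, adjusted p = 0.0266) and Tnc probe 2567596 by -1.43 (limma, adjusted p = 0.0048). The median change over the 37 genes was 0.20 in cKO and 0.15 in wild type, and over all genes -0.01 in cKO and -0.02 in wild type. Col6a1 had signals of 2669.7, 2338 and 2089.5 in D4 cKO and 1355, 1182 and 728 in D3 cKO (1.16, SE 0.31, adjusted p = 0.0525). In wild type cultures, where it passed, its signals were 2856, 1647 and 1168 at D4 and 825, 569.8 and 589 at D3 (1.44, SE 0.31, adjusted p = 0.00889). The D4 arrays of Col6a1 lay above the D3 arrays in both genotypes.

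Col16a1 rose between the days in both genotypes. It had 2289, 2001 and 2147 in D4 cKO and 1585, 1398 and 1207 in D3 cKO (0.63, SE 0.15, adjusted p = 0.0377), and 2259.6, 1818 and 1663 in D4 wild type and 1013, 1328 and 1101 in D3 wild type (0.73, SE 0.15, adjusted p = 0.00701). The D4 arrays lay above the D3 arrays in each genotype, but the cKO call was lost in 12 of 19 alternatives. One of these was a fit of the cKO arrays alone with the replicate number as a block, since same-numbered D4 and D3 cKO arrays deviated together (adjusted p = 0.0584). Thbs1 fell to the D4 wild type signals given above, by 0.87 on the log2 scale (SE 0.17, adjusted p = 0.00625), while its D4 and D3 cKO arrays overlapped (difference -0.01, adjusted p = 0.991). Of the remaining genes called in wild type, Col4a5 had 0.35 in cKO and 0.67 in wild type (adjusted p = 0.246 and 0.0177), and Lamb2 had 0.55 in cKO and 0.59 in wild type (adjusted p = 0.0394 and 0.0108).

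**Figure D5:**
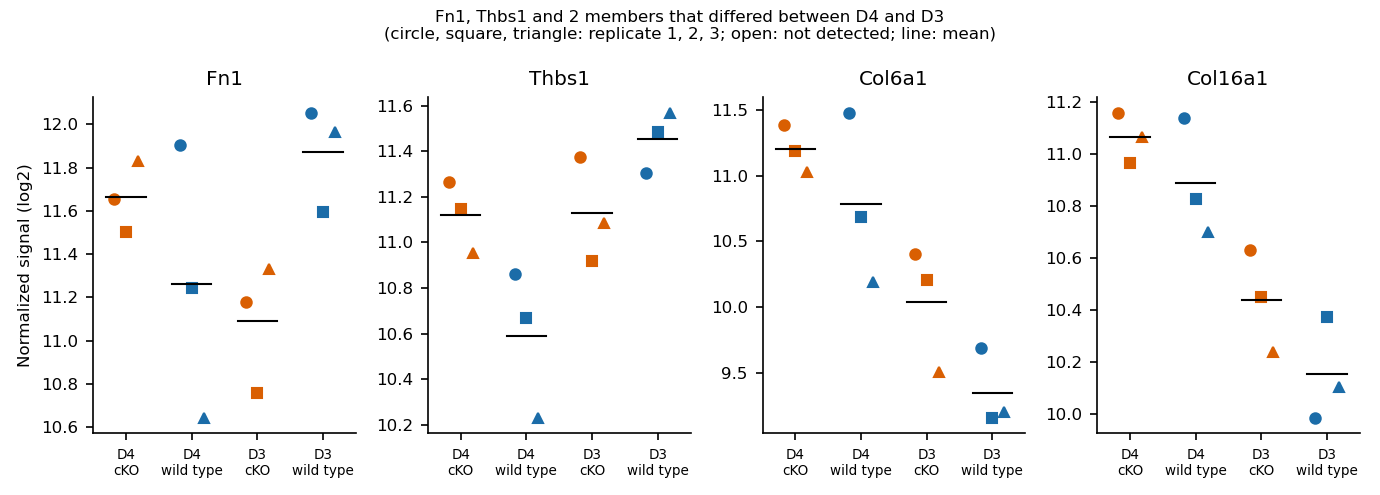
Normalized log2 signal of Fn1, Thbs1, Col6a1 and Col16a1 on each array of D4 cKO, D4 wild type, D3 cKO and D3 wild type, with lines at the means of 3 arrays. Fn1 in cKO lies below wild type at D3 and its D4 groups overlap, Thbs1 is lowest in D4 wild type, and Col6a1 and Col16a1 are higher at D4 than at D3 in both genotypes.

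Genes of the same pathway outside the list were compared in 4 further lists. Of 16 measured genes of collagen folding, secretion and processing, 0 passed at either day, with medians of 0.22 at D4 and 0.17 at D3. The largest at D4 were P3h3, a prolyl 3-hydroxylase (0.76, SE 0.29, adjusted p = 0.173), and P3h1, another one (0.61, SE 0.25, adjusted p = 0.204). Of 16 measured partners of fibrils and elastic fibres, 0 passed, with medians of 0.39 at D4 and 0.26 at D3. Ltbp4, a binding protein of latent TGF-beta (0.86, SE 0.45, adjusted p = 0.329), and Mfap5, a microfibril protein (0.79, SE 0.32, adjusted p = 0.199), had the largest D4 differences there.

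Of 11 other collagen, laminin and basement membrane genes measured, 1 fell at D4. This was Col9a1, a chain of cartilage collagen IX, whose log2 signal averaged 6.55 in D4 cKO and 8.19 in D4 wild type (-1.64, SE 0.26, adjusted p = 0.00392). Of 17 matrix receptors measured, the same 1 fell at each day: Sdc4, which encodes the cell surface proteoglycan syndecan-4, averaged 10.46 in D4 cKO and 11.54 in D4 wild type (-1.08, SE 0.24, adjusted p = 0.0266), and 10.39 in D3 cKO and 11.62 in D3 wild type (-1.23, SE 0.24, adjusted p = 0.0182). The medians of the receptors were 0.06 at D4 and 0.01 at D3.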

How the data were processed

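The arrays held RNA of MEC cultures, 12 samples in 4 groups. The deposited bead-array tables give, per probe, a signal intensity that the authors exported from GenomeStudio (version: not given in the sources used here) and a detection p-value against negative controls. The intensities were background-corrected with the control distribution estimated from the detection p-values, quantile normalized and put on the log2 scale (neqc, offset 16, limma 3.58.1, R 4.3.3). The authors also deposited processed intensities, rank-invariant normalized, which served as an alternative. Probes were annotated from the platform table: 34885 had 1 gene symbol, 18 several and 10378 none. The 42 members and all gene lists were chosen with earlier results of these data known. Group means were fitted in limma over all 12 arrays, and p-values were adjusted by Benjamini-Hochberg over the 19972 probes detected on at least 3 arrays. The genes described in full were those called between genotypes, the largest and smallest D4 difference of each role group and up to 3 called per genotype between days. Other members were described in brief after their values were seen. The precision is limited by 3 arrays a group, and the scripts were tested on simulated data. Same-numbered D4 and D3 cKO arrays deviated together (residual correlations 0.31, 0.35 and 0.36), but the fit over all 12 arrays was unpaired, so a paired fit of the cKO arrays was added as an alternative and its result stands beside the unpaired one. The BeadChip of the D4 arrays comes from the study's probe table, and no source used here gives that of the D3 arrays. Promoters were read from RefSeq (GRCm38.p6).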

Additional observations from a re-analysis of the deposited data

Results flagged for a closer look

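For 2 genes the genotype differences at D4 and D3 had opposite signs, and the test of the difference between the days had an unadjusted p under 0.05. For Fn1 the D4 difference minus the D3 difference was 1.18 (limma, adjusted p = 0.55), with D4 cKO above wild type on 2 of 3 BeadChips and D3 cKO below wild type without overlap. For Thbs1 it was 0.86 (limma, adjusted p = 0.452), with D4 cKO above wild type on 3 of 3 BeadChips. Neither difference passed after adjustment.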

How the results depend on the processing

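Among the alternatives run, the counts of genes lower in cKO at D4 (0) and of genes that differed between the days in their genotype difference (0) did not change. Leaving out each array in turn, the genes higher in cKO numbered 1 to 14 at D4 (1.78% to 3.38% of all genes) and 0 to 1 at D3 (1.33% to 2.12%). The D3 median ran from 0.28 to 0.52. The genes higher at D4 than at D3 numbered 0 to 1 in cKO (0.858% to 2.89% of all genes) and 2 to 4 in wild type (5.56% to 6.69%). Those lower at D4 in wild type numbered 1 to 2 (388 to 539 of all 10724 genes). The value of 14 came without D4 wild type replicate 1, the array singled out for its high values of these genes. The value of 1 at D4 came without D4 wild type replicate 3. With the replicate block over all 12 arrays 9 genes were higher in cKO at D4 (4.03% of all genes), 5 at D3 (2.69%) and 2 at D4 against D3 in cKO (2.97%). At D4 alone the replicate block gave 5 (1.65% of all genes). The numbers pair D4 with D3 cKO arrays, where the cKO arrays alone with the block gave 2 (1.77% of all genes), Col6a1 and Col6a2, an alternative chosen after seeing the data. Same-numbered arrays of the genotypes at 1 day had residual correlations from -0.08 to 0.14 over all probes. With no BeadChip given for the D3 arrays, the D3 count of 5 rests on a shared number. Over the matrix genes alone these correlations were 0.45, 0.37 and -0.18 at D4 and 0.05, 0.28 and 0.54 at D3. The main fit used no block, so it takes no account of such a pairing.

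With any probe of a gene counted, 7 genes were higher in cKO at D4 and 2 at D3, and 2 were lower at D4 in wild type. For all genes only the brightest probe was counted, with shares of 2.79%, 1.94% and 4.89%. Without background correction 2 were higher at D3 (1.7% of all genes) and the D3 median was 0.26. With limma's trend and robust options 1 was higher at D3 (2.19% of all genes). Fitting only the arrays compared left 1 at D4 (2.24% of all genes). At unadjusted p the methods' t-test gave 9 higher (3.17% of all genes) and 1 lower (112 of all 10724 genes) at D3. It gave 3 higher between days in cKO (3.42% of all genes). After Benjamini-Hochberg it gave 0 at D4 (0.662% of all genes higher) against 4 unadjusted (3.87%), and 0 between days in cKO (0%). Between days in wild type it gave 0 higher (3.23% of all genes) and 0 lower (172 of all 10724 genes). Unadjusted, these were 5 (7.22%) and 1 (540 genes). For the days in cKO, Col16a1 was the 1 gene called. The count was 2 with the authors' processed values (2.7% of all genes), a stricter detection filter (3.31%) and no fold minimum (3.31%). It was 0 with median scaling (1.59%) and with no filter (1.04%). The causes of these changes were not tested. Dim probes (Lama1, Nid2, Col3a1, Col5a2, Col6a2, Lamb1, Eln) lay near background, which limits their folds.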
